A study of Drosophila melanogaster with 12 samples.

Results

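Messenger RNA in heads collected around dawn was compared with that in heads collected around dusk, in fruit flies (Drosophila melanogaster) that carry a loss-of-function mutation of timeless (tim), a gene at the heart of the circadian clock. The 4 dawn arrays are those of clock hours 22 and 2, and the 4 dusk arrays those of clock hours 10 and 14. Hours are counted from lights-on, and lights-off fell at hour 12. These are 8 of the 12 arrays of the time course, and a rule on the clock hour picked them. The other 4 arrays, of hours 6 and 18, took no part in the comparison.

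All flies, in both groups, had the genotype y w; tim01, that is, mutations in yellow and white beside the tim01 mutation. They had been kept in cycles of 12 h of light and 12 h of darkness and were then sampled every 4 h, first over a further such day (LD, hours written ZT) and then over the next day in constant darkness (DD, hours written CT). The dawn group holds ZT2, ZT22, CT2 and CT22, and the dusk group ZT10, ZT14, CT10 and CT14. Each array carried RNA from heads pooled from many flies, which were frozen, broken up and sieved. The sources used here do not give the age and sex of the flies, and no wild-type flies were analysed here.

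In a fly with a working clock, the Clock and Cycle proteins switch on period and timeless, whose protein products accumulate through the night and then shut off their own transcription. Light removes the Timeless protein and so sets this loop each morning. Without Timeless the loop does not run, so the comparison asks which transcripts still differ between these hours, and whether they do so on both days. Dawn and dusk hours straddle the 2 light transitions, and in a light cycle flies are most active near these transitions.

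The choice of hours balanced the 2 groups for the count of arrays taken in light and for elapsed time. Each group held 1 array taken in light (ZT2 and ZT10) and 3 taken in darkness. The light that came before sampling was not balanced on the LD day. ZT10 and ZT14 followed most or all of the light phase, ZT2 only its start, and ZT22 most of the dark phase. The mean time of collection was 24 h from the first lights-on in both groups, so a steady drift over the time course adds nothing to the difference. The groups are not contiguous in time, since the dawn arrays were taken at hours 2, 22, 26 and 46 of the collection and the dusk arrays at hours 10, 14, 34 and 38. There was 1 array per time, so the spread within a group includes any change between its hours, and a p-value measures only that spread. The LD day always came first, so lighting, day of collection and age cannot be told apart.

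Values are the authors' log2 expression values, so a difference of 1 is a 2-fold difference. Across the 12 arrays the median was lowest at CT2 (4.0) and highest at ZT14 and ZT6 (4.10), and correlations between arrays lay between 0.985 and 0.996. ZT14 stood apart in its control probe sets, with the largest 3′ minus 5′ differences for GAPDH (2.58) and eIF-4a (3.70) and the lowest mean of the spiked-in controls (8.32). Photoreceptor markers averaged 9.52 at ZT2 and 9.46 at ZT10 and head fat body markers 11.2 at both, so both tissues of the head were well represented. Markers of the midgut, which is outside the head, averaged from 4.79 to 8.49 over the 12 arrays.

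Over both days, 0 of 13966 probe sets passed limma's moderated test of dawn against dusk after Benjamini-Hochberg adjustment at 0.05 (0% of those tested). An unadjusted p under 0.05 was reached by 1097 probe sets (7.85%), of which 379 were higher at dawn (2.71%) and 718 were lower (5.14%). This split followed the scaling of the arrays. The share that was higher at dawn was 34.5% in the deposited values, 54.4% after another quantile normalization and 72.1% after centring each array on its median. The median difference of all probe sets was -0.03, 0.00 and 0.01 in these 3 scalings. Probe sets whose arrays did not overlap on either day numbered 394 with dawn above dusk (2.82%) and 842 with dawn below dusk (6.03%). With the days put together, all dawn arrays lay above all dusk arrays for 212 probe sets (1.52%) and below them for 447 (3.20%). The leading genes below were chosen by smallest p on these same arrays, so their lack of overlap is no separate support.

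The gene with the smallest p was CAH5 (CG18673, chromosome 3R), which encodes a member of the carbonic anhydrase family, enzymes that interconvert carbon dioxide and bicarbonate. Its level at dawn was 7.31 at ZT2, 7.27 at ZT22, 7.54 at CT2 and 7.21 at CT22. At dusk it was 6.27 at ZT10, 6.68 at ZT14, 6.65 at CT10 and 6.6 at CT14. All 4 dawn arrays lay above all 4 dusk arrays, and the lowest dawn array was still above the highest dusk array by more than the spread of the dawn arrays. The difference was 0.78 (SE 0.097, 95% interval 0.57 to 1.0), a 1.72-fold higher level at dawn, with an adjusted p of 0.153 in limma. It was 0.82 on the LD day and 0.75 on the DD day. The hours outside the comparison stood at 7.41 at ZT6 and 7.47 at CT6 and at 6.80 at ZT18 and 6.4 at CT18, so the high values ran from hour 22 to hour 6 and the low ones from hour 10 to hour 18.

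Obp56a (CG11797, chromosome 2R), which encodes an odorant binding protein, one of a family of small secreted proteins that carry hydrophobic molecules, came next. Its level at dawn was 4.83 at ZT2, 4.70 at ZT22, 4.90 at CT2 and 4.35 at CT22. At dusk it was 4.12 at ZT10, 4.08 at ZT14, 3.86 at CT10 and 3.94 at CT14. The groups did not overlap, although CT22 stood nearer to the dusk arrays than the other dawn arrays did. The difference was 0.70 (SE 0.102, 95% interval 0.47 to 0.93), a 1.62-fold higher level at dawn, with an adjusted p of 0.328 in limma.

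**Figure D1:**
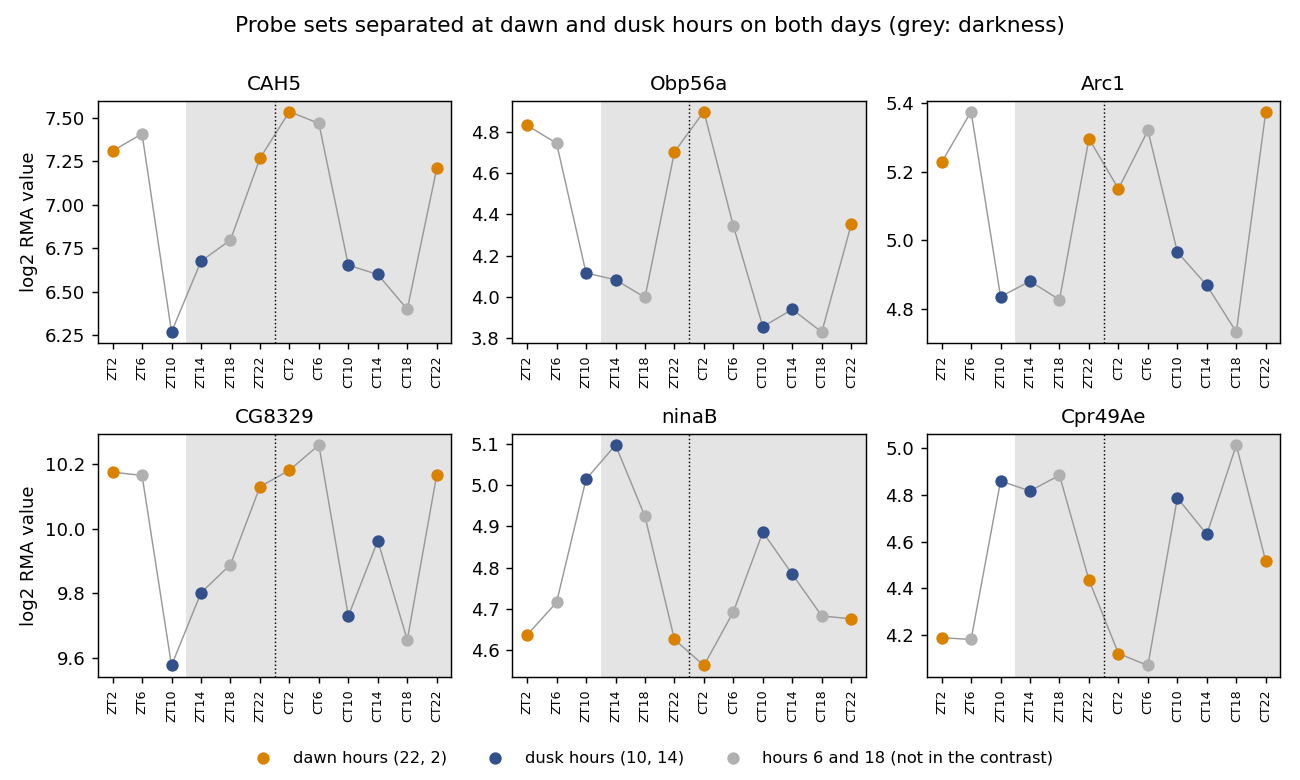
Log2 level of 6 of the genes leading in either direction over both days, plotted against hours of collection, with a point for each of the 12 arrays and dawn and dusk arrays coloured; grey shading marks darkness. CAH5 lay between 7.21 and 7.54 on the dawn arrays and between 6.27 and 6.68 on the dusk arrays, and ninaB stood lower at dawn than at dusk on both days.

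The other genes leading on the dawn side differed by less. CG4306 was at 5.68 ± 0.076 at dawn and 5.28 ± 0.125 at dusk (mean ± SD, n = 4 arrays each), a difference of 0.41. Arc1, whose protein forms capsids that carry RNA between cells, was at 5.23, 5.30, 5.15 and 5.37 at ZT2, ZT22, CT2 and CT22, and between 4.84 and 4.97 at dusk. Its groups did not overlap, and its difference of 0.37 (SE 0.063) was close on the LD day (0.40) and the DD day (0.34). RpS29, a protein of the small ribosomal subunit, differed by 0.38 and Ance-5, of the angiotensin-converting enzyme family, by 0.40. CG8329 differed by 0.40, CG4572 by 0.37, Obp99d by 0.28 and stac by 0.29, and all 8 of these genes had an adjusted p of 0.474 in limma. stac lay below the lower quartile of all probe sets on every array.

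Among genes lower at dawn, ninaB (CG9347, chromosome 3R) had the smallest p. It encodes the enzyme that cleaves carotenoids to make the chromophore of the visual pigment. Its level at dawn was 4.64 at ZT2, 4.63 at ZT22, 4.56 at CT2 and 4.68 at CT22, a narrow range. At dusk it was 5.01 at ZT10, 5.10 at ZT14, 4.89 at CT10 and 4.78 at CT14, so the groups did not overlap and the LD dusk arrays were the highest. The difference was -0.32 (SE 0.064, adjusted p = 0.547 in limma), with -0.42 on the LD day and -0.22 on the DD day.

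Cpr49Ae, a cuticle protein gene, was at 4.32 ± 0.189 at dawn and 4.77 ± 0.099 at dusk, a difference of -0.46. CG9512 differed by -0.30 and CG4000 by -0.31, and neither overlapped between the groups. The other 6 leading genes on this side were CG33012, CG42390, CG17211, CG13545, CG13563 and CG4424, with differences between -0.23 and -0.32. CG33012 and CG13563 lay below the lower quartile of all probe sets on every array. All 10 genes had an adjusted p of 0.547 in limma. The dawn and dusk arrays of CG42390 and CG17211 overlapped when the 2 days were put together.

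The arrays of hours 6 and 18 were not used to choose these genes. Of the 10 genes leading on the dawn side, 9 stood higher at hour 6 than at hour 18 on both days, as did 33.4% of all probe sets. For CAH5 hour 6 exceeded hour 18 by 0.61 in LD and 1.07 in DD, and for Obp56a by 0.75 and 0.52. Of the 10 genes leading on the dusk side, 3 (Cpr49Ae, CG9512 and CG4000) stood lower at hour 6 than at hour 18 on both days, as did 23.3% of all probe sets, and 4 stood higher on both days. The hour 6 and hour 18 arrays are single arrays, so these counts carry no test.

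Within the LD day 2 probe sets passed after adjustment (0.0143% of those tested), and 754 had an unadjusted p under 0.05 (5.4%). Both that passed rose at dawn. One was tan, whose symbol is t (CG12120, chromosome X), which encodes the hydrolase that frees histamine, the transmitter of photoreceptors, from its conjugate with beta-alanine. Its level was 6.66 at ZT2 and 6.51 at ZT22 against 5.60 at ZT10 and 5.48 at ZT14. The DD arrays at the same clock hours all lay between 6.6 and 6.86, at the level of the LD dawn arrays, so the 2 LD dusk arrays were the low ones. ZT10 and ZT14 also had the 2 highest 3′ minus 5′ differences of the 12 arrays for the GAPDH control (2.42 and 2.58) and the eIF-4a control (3.33 and 3.70), and their part in this difference or that of the next gene was not tested. The LD difference was 1.05 (SE 0.103, 2.07-fold, adjusted p = 0.036 in limma), and the DD difference was 0.00 with a 95% interval of -0.23 to 0.23. The remaining LD arrays, 5.95 at ZT6 and 6.07 at ZT18, lay between the dawn and dusk values.

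The other was lqf (liquid facets, CG8532, chromosome 3L), which encodes epsin, a protein of clathrin-mediated endocytosis that is needed for Notch signalling. Its level was 6.87 at ZT2 and 6.75 at ZT22 against 5.89 at ZT10 and 6.06 at ZT14. On the DD arrays it stood between 6.64 and 6.75 at dawn and dusk alike. The LD difference was 0.84 (SE 0.087, 1.79-fold, adjusted p = 0.036 in limma) and the DD difference -0.06. Both calls rest on 2 arrays against 2. Leaving out any 1 of the 8 arrays, or normalizing by quantiles again, left 0 calls within LD.

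CG7135 had the next smallest p in LD, at 6.02 and 6.14 on the LD dawn arrays and 5.51 and 5.46 on the LD dusk arrays, a difference of 0.60 (adjusted p = 0.275 in limma). Slob, whose protein binds the Slowpoke potassium channel, differed by 0.61 in LD and 0.05 in DD. Its ZT6 value, 6.79, was lower than those at ZT10 (7.04) and ZT14 (7.35). A second probe set of Slob, at a mean level of 5.44, differed by only 0.08 in LD and by -0.14 in DD.

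**Figure D2:**
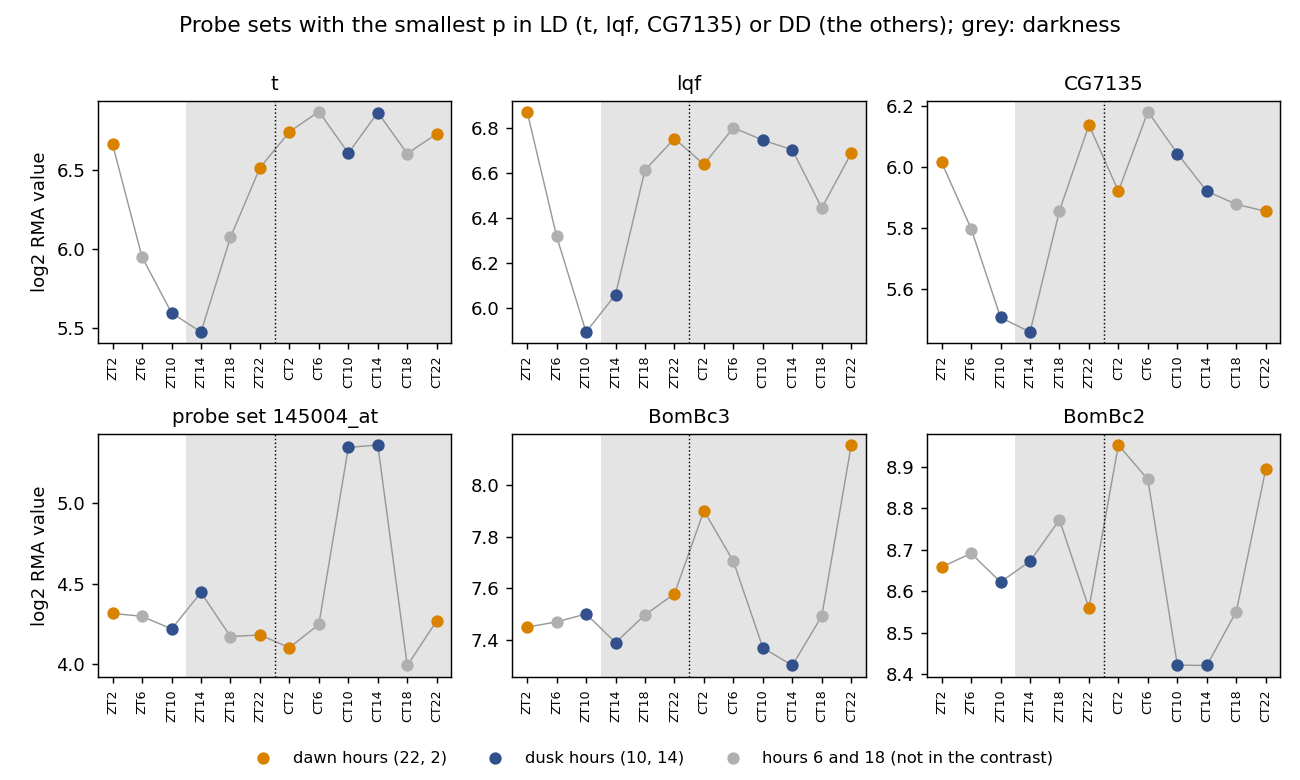
Log2 level of probe sets with the smallest p on the LD day (t, lqf, CG7135) or on the DD day (the others), against hours of collection, 1 point per array, with darkness shaded. The LD dusk values of t (5.48 and 5.60) stood below its DD values at the same clock hours, and those of 145004_at at CT10 and CT14 (5.35 and 5.36) stood above all its other values.

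Within the DD day 1 probe set passed after adjustment (0.00716%), and 870 had an unadjusted p under 0.05 (6.23%). It was probe set 145004_at, which the annotation used here gives no gene symbol. It stood at 5.35 at CT10 and 5.36 at CT14, against 4.10 at CT2 and 4.27 at CT22. Its LD values at the same hours lay between 4.18 and 4.45, so CT10 and CT14 were the high arrays. The difference was -1.17 (SE 0.102, 2.25-fold, adjusted p = 0.017 in limma). Without ZT2, ZT22, CT10 or CT14 the DD comparison had 0 calls, while the difference of this probe set stayed between -1.25 and -1.08 over all settings.

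Pgant2, an enzyme that starts O-linked glycosylation of proteins, had the same pair of high arrays. It was at 4.49 at CT10 and 4.61 at CT14 and between 3.50 and 3.98 on the other dawn and dusk arrays, a DD difference of -0.88 (SE 0.123, adjusted p = 0.372 in limma). unc80, which encodes a subunit of the sodium leak channel complex, was at 6.16 at CT10 and 5.98 at CT14 and at 5.55 and 5.56 on the DD dawn arrays, a difference of -0.52. The 3′ minus 5′ difference of the Actin control was also set apart on these arrays, at 2.04 at CT10 and 1.96 at CT14 and between 2.23 and 2.52 on the others. Its part in these differences was not tested.

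The opposite direction in DD was led by BomBc3 and BomBc2, which encode Bomanins, short peptides that the Toll immune pathway induces. BomBc3 was at 7.90 at CT2 and 8.16 at CT22 against 7.37 at CT10 and 7.30 at CT14, and its LD values lay between 7.39 and 7.58. The DD difference was 0.69 for BomBc3 and 0.50 for BomBc2, each with an adjusted p of 0.375 in limma. Of 17 immune response genes measured, 4 were higher at dawn in DD by unadjusted p, where 1.52% of all probe sets were, and the list's median was 0.12 in DD and -0.05 in LD. Over both days 0 of the 17 had an unadjusted p under 0.05. BomS2, another Bomanin, differed by 0.62 in DD. Drosomycin (Drs), an antifungal peptide, differed by 0.95 in DD, and CT22 stood apart at 8.63 against 7.48 at CT2, 7.22 at CT10 and 6.98 at CT14.

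The difference between the 2 days' dawn-dusk differences was tested directly. It passed for 0 probe sets after adjustment in limma (0%), while 581 had an unadjusted p under 0.05 (4.16%). The smallest adjusted p, 0.251, was shared by t (LD minus DD 1.05), lqf (0.90) and 145004_at (1.09). A difference between the days is therefore not established for any of the 3, although each passed on 1 day and not on the other.

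**Figure D3:**
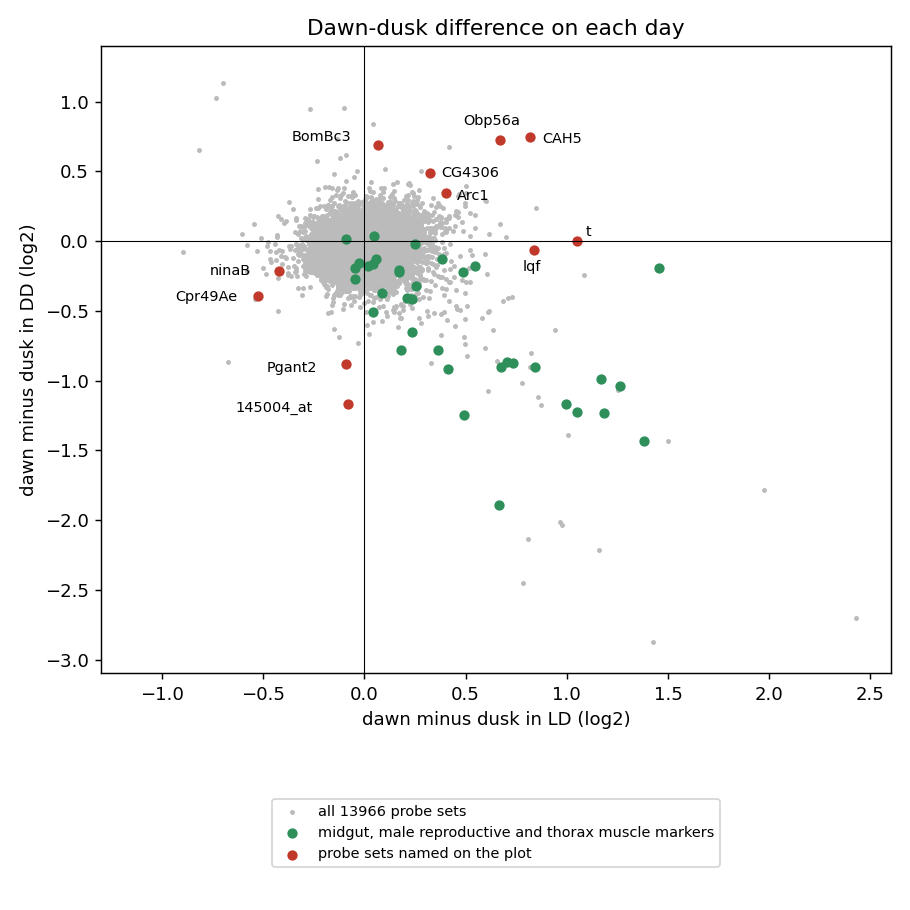
Dawn minus dusk difference on the LD day (x axis, log2) against the same on the DD day (y axis, log2) for all 13966 probe sets, with markers of midgut, male reproductive tissue and thorax muscle in green. CAH5 and Obp56a lay in the corner of higher values on both days, t and lqf near 0 on the DD axis, and many of the green points at higher values in LD and lower values in DD.

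Most large differences did not recur. A difference over 0.5 in size was found for 81 probe sets in LD and 93 in DD. Only 3 had it on both days with the same sign, which were CAH5, Obp56a and Acp1 (-0.68 in LD and -0.87 in DD), while 39 had it with opposite signs. Acp1, an adult cuticle protein gene, was at 5.90, 7.33, 6.35 and 6.29 at ZT2, ZT22, CT2 and CT22 and at 7.57, 7.01, 8.03 and 6.35 at ZT10, ZT14, CT10 and CT14, so its groups overlapped. Across probe sets the correlation of the LD with the DD difference was -0.138 (Pearson) and 0.09 (Spearman), as a description only, since probe sets share the same 8 arrays.

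Of the 39 probe sets with opposite signs, 36 were higher at dawn in LD and lower at dawn in DD, and markers of tissues outside the head were among them. All 9 midgut markers measured were higher at dawn in LD, with a median of 1.05, and all 9 were lower in DD, with a median of -0.99. All 17 markers of male reproductive tissue did the same, with medians of 0.36 and -0.51, but thorax muscle markers were divided, with 6 of 10 above 0 in LD (median 0.11) and 2 of 10 in DD (median -0.18). None of these markers reached an unadjusted p under 0.05 over both days, and no midgut or male reproductive marker did within either day. The dawn arrays of each day differed widely, with a midgut mean of 4.96 at ZT2 and 7.42 at ZT22, and of 4.79 at CT2 and 8.09 at CT22. The dusk arrays stood at 5.42 (ZT10), 4.96 (ZT14), 6.72 (CT10) and 8.03 (CT14). Among these arrays ZT22 alone was high in LD, and CT2 was the lowest in DD. In pooled heads, fewer cells of a type and less RNA per cell cannot be told apart.

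A score over these 3 marker lists, in log2 units from the mean of the 12 arrays, was -0.79 at ZT2, 0.49 at ZT22, -0.85 at CT2 and 0.87 at CT22. On the dusk arrays it was -0.44 at ZT10, -0.78 at ZT14, 0.23 at CT10 and 0.96 at CT14. It averaged -0.07 ± 0.88 at dawn and -0.01 ± 0.77 at dusk (SD, n = 4 arrays each), so it moved within the groups far more than between them. With this score as a covariate, CAH5 differed by 0.77 and Obp56a by 0.69, each with an adjusted p of 0.011 in limma. That was the lowest adjusted p of any setting for either gene, against 0.153 and 0.328 without the score.

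The core clock genes were next compared between dawn and dusk in these clock-mutant heads. Of 14 measured, 0 passed after adjustment, and 1 was higher and 1 lower by unadjusted p, each 7.14% of the list, against 2.71% and 5.14% of all probe sets. The higher was Clk, which encodes the activator that pairs with Cycle. It was at 2.78, 2.83, 2.68 and 3.0 at ZT2, ZT22, CT2 and CT22 and at 2.35, 2.55, 2.7 and 2.77 at ZT10, ZT14, CT10 and CT14. The groups overlapped on the DD day, the difference was 0.23 (SE 0.087, adjusted p = 0.568 in limma), and the level was below the lower quartile of all probe sets on every one of these arrays but CT22.

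The lower was per, the partner of timeless in the repressor complex. It was at 5.12, 4.81, 4.82 and 5.03 at ZT2, ZT22, CT2 and CT22 and at 5.11, 5.30, 5.0 and 5.13 at ZT10, ZT14, CT10 and CT14, so the groups overlapped. The difference was -0.19 (SE 0.086, adjusted p = 0.636 in limma). tim itself was at 6.61 ± 0.117 at dawn and 6.55 ± 0.087 at dusk, a difference of 0.06 with a 95% interval of -0.10 to 0.22, and its other 2 probe sets, measured at lower levels, differed by -0.12 and -0.14. The activator cyc differed by 0.05, and the second-loop regulators vri and Pdp1 by -0.05 and 0.02. cry, whose blue-light receptor protein brings light to the clock, differed by 0.00.

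**Figure D4:**
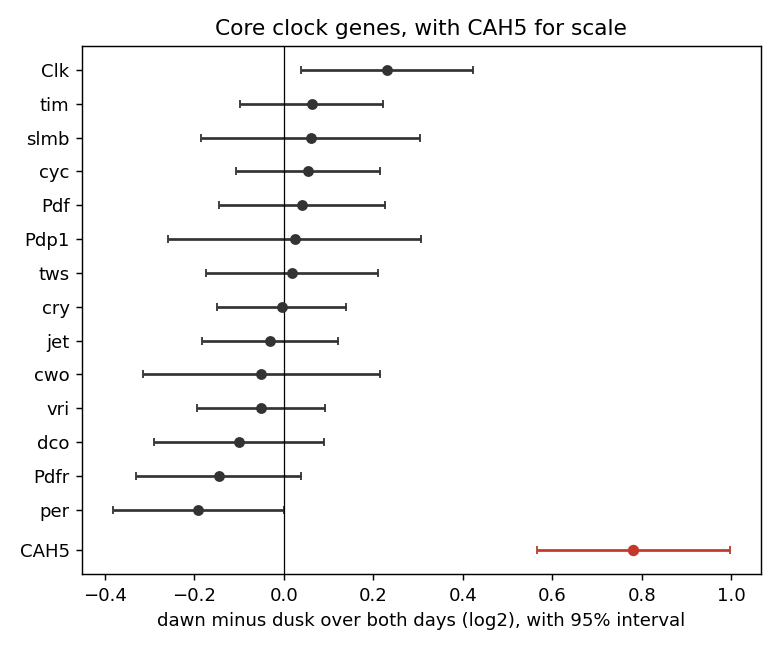
Dawn minus dusk difference over both days (x axis, log2) of the 14 core clock genes measured and, in red for scale, CAH5, with points for the fitted differences and bars for their 95% intervals. The clock genes lay between -0.19 (per) and 0.23 (Clk), and CAH5 at 0.78.

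Genes proposed as outputs of the clock had a median difference of 0.04, with 2 of 12 higher at dawn by unadjusted p, Slob (0.33) and Hpd (0.18), and 0 lower. In DD these 2 differed by 0.05 and 0.07, against 0.61 and 0.29 in LD, but a second probe set of Slob differed by 0.08 in LD. For comparison, the median of all probe sets was -0.03, and 2.71% of them were higher and 5.14% lower by unadjusted p. In lists of this size 1 or 2 genes in either direction are too few to set against those shares. Phototransduction genes had a median of 0.00, with 2 of 23 higher and 1 lower. The lower was Arr1, an arrestin that shuts off activated rhodopsin, at 10.61 ± 0.076 at dawn and 10.83 ± 0.146 at dusk (-0.23). The higher were stops, which keeps up the level of the phospholipase of the light response (0.22), and inaC, the eye's protein kinase C (0.17). Of 6 chromophore genes ninaB alone had an unadjusted p under 0.05.

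Of 6 genes of histamine recycling, t was higher over both days (0.52) through its LD values, and Balat, a beta-alanine transporter, was lower (-0.19). Of 21 genes of the screening pigments, lt was higher (0.27) and Rab32 (-0.28) and Pu (-0.26) were lower by unadjusted p. Pu differed by -0.48 in LD and -0.04 in DD. lt and Rab32 act in the transport of material to pigment granules, and Pu encodes the first enzyme of pteridine synthesis. These counts, too, are too few to set against the 2.71% of all probe sets that were higher and the 5.14% that were lower.

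Arc1 was the only 1 of 13 neuronal activity genes higher at dawn by unadjusted p, and CG14186 (-0.21) the only 1 lower. Among 20 genes of excitability, Slob and tipE, an accessory subunit of the Para sodium channel (0.19), were higher. A second probe set of tipE, at a mean level of 2.05, differed by -0.18, and a second one of Slob by -0.03. The potassium channel genes eag (-0.25) and Shab (-0.17) and the sodium leak subunit gene unc80 (-0.35) were lower. Of 20 neuropeptide genes, Ms, the myosuppressin gene, was higher (0.21, with 0.34 in LD and 0.08 in DD), and Nplp3 was lower (-0.35). Nplp3 was between 10.3 and 10.6 at dawn and between 10.6 and 11 at dusk, and its dawn and dusk arrays did not overlap. None of 9 genes of cAMP signalling had an unadjusted p under 0.05. Among all probe sets 2.71% were higher and 5.14% lower, and the counts in these lists are too few to set against those shares.

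Of 35 odorant binding protein genes, 6 were higher at dawn by unadjusted p (17.1%, against 2.71% of all probe sets) and 3 were lower (8.57%, against 5.14%). The median of the 35 was 0.01, with 19 members above 0. Beside Obp56a and Obp99d, the higher members were Obp56e (0.32), Obp56d (0.20), Obp57c (0.16) and Obp19b (0.14). The lower were Obp56h (-0.23), Obp19c (-0.19) and Obp19a (-0.14). Of these, all but Obp56a, Obp99d and Obp19c are named because of their values.

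Cytosolic ribosomal protein genes had a median difference of 0.07, with 33 of 37 above 0, where 37.5% of all probe sets were. By unadjusted p 6 were higher (16.2%, against 2.71% of all probe sets) and 0 lower. The count above 0 was 28 with a median of 0.04 after another quantile normalization and 35 with a median of 0.11 after median centring. The 37.5% holds for the deposited values only, and the median of all probe sets was -0.002 and 0.01 in these other scalings. RpS29 led the list (0.38), followed by RpL37-1 (0.24) and RpL24-like (0.23). Cuticle protein genes had a median of -0.07, with 20 of 92 above 0 (21.7%, against 37.5% of all probe sets). By unadjusted p 1 was higher and 6 were lower, and these 6 are 6.52% of the list, near the 5.14% of all probe sets. After median centring 33 of the 92 were above 0, and 3 were higher and 4 lower by unadjusted p. The list's median was then -0.03, but that of all probe sets was 0.01, so the list still stood below it. After another quantile normalization 27 were above 0, and 1 was higher and 6 were lower. The list's median there was -0.04, against -0.002 for all probe sets. Within this list, which does not hold Acp1 (-0.77), Cpr49Ae was the lowest (-0.46) and Cpr72Ec the highest (0.39).

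**Figure D5:**
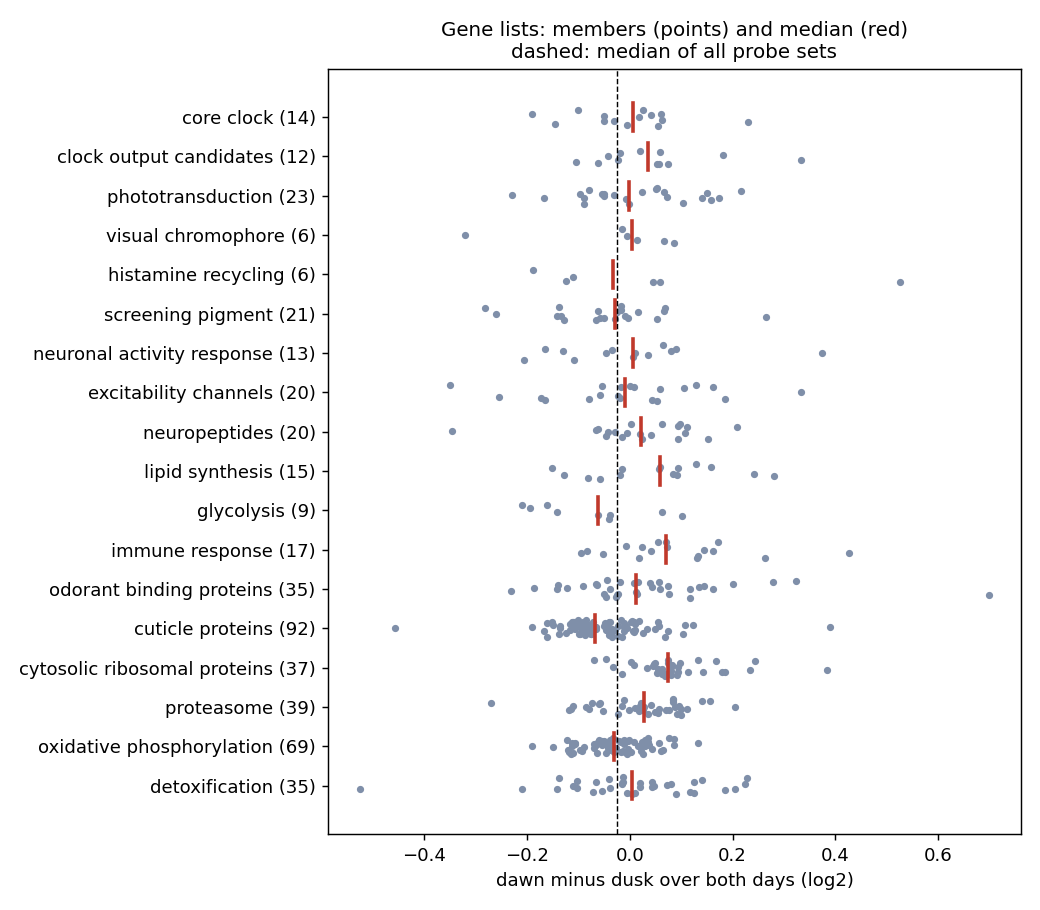
Dawn minus dusk difference over both days (log2) of the measured members of each gene list, with the median of each list and that of all probe sets. The median of cytosolic ribosomal protein genes was 0.07 and that of cuticle protein genes -0.07, against -0.03 for all probe sets.

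Metabolic and stress genes gave a few small differences. By unadjusted p 2.71% of all probe sets were higher and 5.14% lower, and the counts below are too few to set against those shares. Of 9 glycolysis genes, Gapdh1 (-0.21) and Pfk (-0.19) were lower by unadjusted p and 0 were higher. Of 15 lipid synthesis genes, mdy, which makes triacylglycerol (0.24, and -0.06 on a second probe set), and Acsl, which activates fatty acids (0.16), were higher. Of 13 heat shock genes, the inducible chaperone gene Hsp68 (0.24) and the co-chaperone gene Stip1 (0.22) were higher. Hsp68 was at 3.79 at ZT2 and 3.58 at ZT22 against 3.44 at ZT10 and 3.25 at ZT14, but in DD its dawn and dusk arrays overlapped. Stip1 differed by 0.35 in LD and 0.08 in DD.

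Of 16 genes of fasting and feeding, Sik3 (-0.17) and foxo (-0.16) were lower, but 2 further probe sets of Sik3 differed by -0.07 and 0.01. Of 35 detoxification genes 3 were higher (8.57%) and 2 lower (5.71%), against 2.71% and 5.14% of all probe sets. Of 39 proteasome genes 2 were higher (5.13%, against 2.71% of all probe sets). After median centring 6 were, while the count over all probe sets also rose, from 379 to 762. Of 69 genes of oxidative phosphorylation 1 was lower and 0 were higher, which became 6 lower after another quantile normalization and 1 higher with 0 lower after median centring. The median of the last list was -0.03 in the deposited values and 0.0046 after median centring. That of all probe sets changed sign as well, from -0.03 to 0.01. Of 14 endocytosis genes lqf alone had an unadjusted p under 0.05. No member of any of these lists passed after adjustment over both days.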

How the data were processed

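The deposited table holds log2 expression values of Affymetrix DrosGenome1 probe sets, made by the authors. Per the submitters' processing notes the tool was RMA, which corrects background, normalizes by quantiles and summarises probes. The sources used here give neither its version nor the arrays it took in. The number of arrays limits the precision.

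Of 14010 probe sets, 44 controls were left out. The platform annotation gave 1 symbol for 12442 of the 13966 tested, several for 327 and none for 1197. Of 10843 genes, 1209 had more than 1 probe set and were represented by that with the highest mean. Locus tags and chromosomes come from the RefSeq gene table.

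Day and phase were fitted to 8 arrays with limma 3.58.1 in R 4.3.3 (5 residual degrees of freedom). Means of the 4 day-by-phase cells (4 residual degrees of freedom) gave the differences within each day and between days. Tests were two-sided, moderated, and adjusted by Benjamini-Hochberg over all 13966 probe sets, at a threshold of 0.05. The code was tested on simulated data. The text names the 10 smallest p in each direction over both days, calls or the smallest p within a day, core clock genes and the 3 smallest p of each list, besides genes marked or listed because of their values. The hours, members and lists were chosen with earlier results of these data known. Alternatives changed scaling, filter, prior, weights, covariates, day block and arrays used.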

Additional observations from a re-analysis of the deposited data

Results flagged for a closer look

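Values of 29 genes were examined in the dawn and the dusk group, 58 groups in all, for an array far from the other 3, which chance gives in about 1 group in 20. The groups found numbered 1. unc80 stood at 5.69 at ZT2, above the other dawn arrays, which lay at 5.53 (ZT22), 5.55 (CT2) and 5.56 (CT22).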

How the results depend on the processing

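The 1 array per time limits all results, and leaving out an array leaves a lone array that is assumed to vary like the others. Among the named genes whose results were refitted, no difference with an unadjusted p under 0.05 changed sign. Over both days the count of calls, 0, became 1 with a trended robust prior (CAH5, adjusted p = 0.0225), 1 with a linear trend over collection hours (Obp56a, adjusted p = 0.0415) and 2 with the body-tissue score as a covariate (CAH5 and Obp56a). It stayed at 0 without any 1 array. CAH5 ranged from 0.69 to 0.86 over all settings, with adjusted p from 0.011 to 0.789, and Obp56a from 0.55 to 0.80 with the same range of adjusted p. Within LD the 2 calls became 0 after quantile normalization, 0 without CT2 and ZT14 together (chosen after seeing the data), and 0 to 0 without any 1 array. The LD difference of t ranged from 0.98 to 1.12 (adjusted p 0.00344 to 0.402) and that of lqf from 0.75 to 0.92 (0.0042 to 0.344). Within DD the 1 call became 3 with the body-tissue score (145004_at, BomBc3 and CG4757), 6 without CT2 and ZT14 together, and 0 to 4 without 1 array. It was 4 without CT2 (with Drs), 4 without CT22 (with Pgant2, Obp56a and Rbfox1), and 0 without ZT2, ZT22, CT10 or CT14. The LD-DD difference gave 0 calls, 3 with a trended robust prior (t, lqf and 145004_at) and 3 without CT2 and ZT14 together (143443_at, 147220_s_at and DptB). With all 12 arrays in the fit the count over both days stayed at 0. In the other 3 comparisons each added array stood alone in its cell, so those counts could not change. With 1 array per time the labels link no dawn array to a dusk array, so no pairing was used beyond the day block.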

Other observations

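The array of CT22 held high values of several immune genes at once, which were looked at after their values were seen. Metchnikowin (Mtk), an antimicrobial peptide, was at 9.48 at CT22, against 8.65 at CT2, 8.20 at CT10 and 7.88 at CT14, and at 9.22 at ZT10, the highest of the LD dawn and dusk arrays. Diptericin B (DptB), an antibacterial peptide, was at 8.15 at CT22 and 8.0 at ZT10 and between 6.71 and 7.20 on the other 6 arrays compared. Their dawn-dusk differences had opposite signs on the 2 days, -0.73 in LD and 1.02 in DD for Mtk, and -0.82 and 0.65 for DptB, and neither passed after adjustment in limma.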
